A study of Homo sapiens with 8 samples.

Results

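The 6 neutrophil-attracting CXC chemokine genes CXCL1, CXCL2, CXCL3, CXCL5, CXCL6 and CXCL8 were followed in xenografts of the human lung cancer cell line H2122. The cells were parental or labelled as knockout of SMARCA4, which encodes a chromatin remodelling ATPase. The kind of lesion is not given in the labels. The 6 genes were chosen by symbol, and all 6 were found among 59050 gene rows. RNA was sequenced from 4 parental tumours (genotype given as WT) and 4 SMARCA4 KO tumours, written as knockout here, and every tumour had received vehicle. All 8 were xenografts of the same line, so host tissue is also present. The sources used here do not give the host strain or age, or say whether the knockout cells were 1 clone or a pool. Nothing in the labels states that tumours of a group came from separate animals, so p-values measure the spread between these samples, which may be partly technical.

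These chemokines carry the amino acid motif glutamate-leucine-arginine before their first cysteines, and they draw neutrophils by binding the receptors CXCR1 and CXCR2. Epithelial and tumour cells release them in response to interleukin-1, tumour necrosis factor and bacterial products, mainly through NF-kB binding at a site just upstream of the gene. Their mRNAs carry AU-rich elements and are short-lived, so levels follow both transcription and decay. Mice have no CXCL8 gene but carry relatives of the others.

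All 6 genes lie on chromosome 4 within 358.8 kb (73740506 to 74099293, GENCODE 29 on GRCh38). In that order stand CXCL8 (73740506 to 73743716, plus strand), CXCL6 (73836497 to 73849064, plus) and CXCL1 (73869393 to 73871242, plus). Further along stand CXCL5 (73995642 to 73998779, minus), CXCL3 (74036589 to 74038807, minus) and CXCL2 (74097035 to 74099293, minus). Promoter sequences were found for all 6 in RefSeq (GRCh38.p14). They are shown because the 6 genes share the same 9 letters, GGAATTTCC, a form of the NF-kB site, at nearly the same distance from the RefSeq start. The site lies on the gene's own strand and begins 77 to 91 bases upstream of the RefSeq start. GENCODE 29 starts CXCL8, CXCL2, CXCL3, CXCL5 and CXCL6 further upstream than RefSeq, so the distance holds for RefSeq only. For CXCL2, CXCL3, CXCL5 and CXCL6 all 30 bases printed lie inside the GENCODE gene. Capitals mark it, and in CXCL8 they also mark the AP-1 motif TGANTCA.
CXCL1, chr4:73869283-73869372 (plus strand): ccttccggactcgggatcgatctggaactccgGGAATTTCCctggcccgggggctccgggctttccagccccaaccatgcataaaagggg
CXCL8, chr4:73740419-73740505 (plus strand): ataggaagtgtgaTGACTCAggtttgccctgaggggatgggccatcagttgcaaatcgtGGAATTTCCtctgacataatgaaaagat
CXCL2, chr4:74099253-74099282 (minus strand): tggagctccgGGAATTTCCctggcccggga
CXCL3, chr4:74038748-74038777 (minus strand): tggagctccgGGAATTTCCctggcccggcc
CXCL5, chr4:73998748-73998777 (minus strand): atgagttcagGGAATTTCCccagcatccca
CXCL6, chr4:73836579-73836608 (plus strand): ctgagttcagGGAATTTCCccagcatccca
PPBP, a neighbour without the site, chr4:73988211-73988300 (minus strand): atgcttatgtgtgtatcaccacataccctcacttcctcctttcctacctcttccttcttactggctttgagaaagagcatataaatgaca

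On either strand of the 250 bases upstream of the RefSeq start, GGAATTTCC was present in 6 of the 6 chemokine promoters and in 0.413% of 35116 promoters of the same length. The promoters are shown because the 6 share these letters, so this describes them and tests nothing. GGAATTTCC preceded by a further G was present in 5 of the 6 and in 0.142% of all promoters, and CXCL8 lacks it. Looser forms of the NF-kB site were not counted, so these shares are not those of NF-kB sites at large. TGANTCA was found in CXCL8 alone of the 6, 137 to 131 bases upstream, and in 6.57% of all promoters. Over the 250 bases the promoters of CXCL5 and CXCL6 were 85.3% identical, those of CXCL1 and CXCL3 81.4%, of CXCL2 and CXCL3 73.3% and of CXCL1 and CXCL2 67.9%. CXCL8 was the most distant, at 39.1% to 42.8% identity with the other 5. A shared motif describes the sequence and does not show that a factor binds there in these tumours. The pentamer ATTTA, the core of AU-rich elements, occurred 10 times in the longest coding transcript of CXCL2 and of CXCL8, 7 times in CXCL3 and 5 times in CXCL1. Per kb of transcript this was 8.21 for CXCL2, 5.87 for CXCL8, 6.51 for CXCL3 and 4.56 for CXCL1, against a median of 0.950 over 19416 coding genes.

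Libraries held 19785922 to 23191698 gene counts in the parental group and 20662882 to 21981123 in the knockout group. SMARCA4 fell from 221 ± 16.0 to 27.3 ± 3.90 CPM (SD, n = 4 each; edgeR adjusted p = 1.45e-07), and every library lay on the side its label gives. CPM, the usual depth-scaled count, was computed with TMM library sizes. Of 16219 genes tested by edgeR's quasi-likelihood test, 27.0% passed an adjusted p of 0.05, with 14.1% lower and 13.0% higher in knockout tumours. Epithelial markers were abundant, at a summed 4852 to 7183 CPM over 7 genes including EPCAM and KRT8, of which 3 were called lower in knockout tumours. Leukocyte and macrophage markers set parental replicates 2 and 3 apart: the 10 genes summed to 92.5 and 79.5 CPM there, against 11.5 to 35.5 CPM in the other 6 tumours. Skeletal muscle markers, 7 genes of which 0 passed the filter on low counts, were uneven in another way. They summed to 35.98 CPM in parental replicate 2, 7.10 CPM in parental replicate 4 and 16.15 CPM in knockout replicate 4. Every other tumour had at most 0.561 CPM. Whether the muscle markers bear on the chemokine levels was not tested. The handling of mouse reads is not given in the sources used here. Reads of host cells in these marker counts or in the chemokine counts therefore cannot be told from tumour reads.

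CXCL1 and CXCL8 were the abundant members in every tumour, and both were modestly lower in knockout tumours. CXCL1, the growth-regulated oncogene alpha chemokine and a CXCR2 ligand, was at 126, 134, 227 and 113 CPM in parental replicates 1 to 4. In knockout replicates 1 to 4 it was at 94.6, 116, 96.7 and 85.2 CPM. Parental replicate 3 stood far above the rest, and knockout replicate 2 lay slightly above the lowest parental tumour, so the groups overlapped. The mean of CXCL1 went from 149.9 ± 52.0 CPM in parental to 98.1 ± 12.9 CPM in knockout tumours (SD, n = 4 each). In edgeR's fit CXCL1 fell, with a log2 change of -0.61 ± 0.197 (SE; adjusted p = 0.0392), to 65.4% of the parental level. The exact two-sided permutation p of the CPM values was 0.0571, where the smallest possible is 0.0286. Without parental replicate 3 the log2 fold change was -0.34 with an adjusted p of 0.0536, and the call was also lost without knockout replicate 1 (0.0917), 3 (0.0868) or 4 (0.102), and under upper-quartile scaling (0.0518).

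CXCL8, interleukin-8, the main human ligand of both receptors, was at 124, 179, 179 and 145 CPM in parental replicates 1 to 4. In knockout replicates 1 to 4 it was at 133, 117, 111 and 78.4 CPM. Knockout replicate 4 was the lowest tumour, and parental replicate 1 lay below knockout replicate 1. The mean of CXCL8 went from 156.7 ± 27.1 CPM in parental to 110.0 ± 22.9 CPM in knockout tumours (SD, n = 4 each). In edgeR's fit CXCL8 fell, with a log2 change of -0.51 ± 0.164 (SE; adjusted p = 0.0386), to 70.2% of the parental level, and the exact permutation p was again 0.0571. The call was lost when any of 5 single tumours was left out, with adjusted p-values of 0.0764 without parental replicate 2, 0.0928 without parental replicate 3, and 0.0653, 0.0802 and 0.0741 without knockout replicates 2, 3 and 4. No 50-base stretch of the longest coding CXCL8 transcript occurs in a transcript of another gene.

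The 2 tumours highest in CXCL8 were also those with the highest leukocyte markers. With these 2 tumours, parental replicates 2 and 3, left out together, the log2 fold change was -0.30 for CXCL8 (edgeR adjusted p = 0.225) and -0.29 for CXCL1 (0.105), and neither was called. With a leukocyte score as a covariate on all 8 tumours, both were called, at -0.45 (adjusted p = 0.0166) and -0.52 (0.0219). Both analyses were added after the values were seen. In a bulk sample, fewer expressing cells and less RNA per cell cannot be told apart, and here neither can reads of host and tumour cells.

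**Figure D1:**
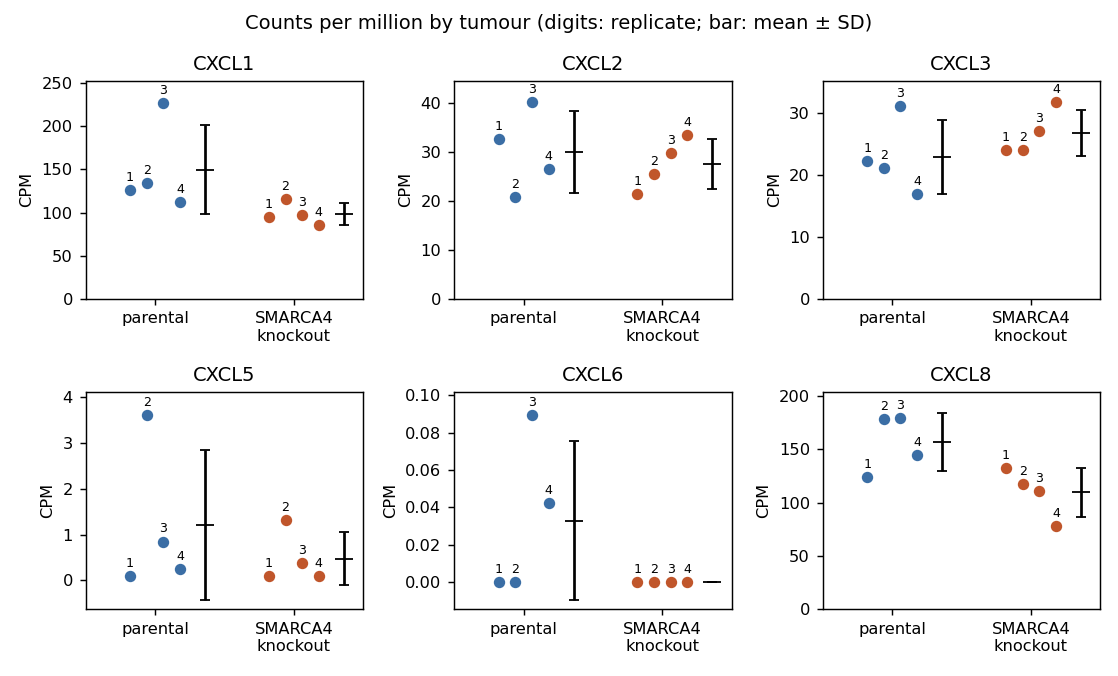
CPM (y axis) of each chemokine gene in the 4 parental (blue) and 4 knockout (orange) tumours, with the replicate number above each point and the mean ± SD as a bar at the right of each group. CXCL1 and CXCL8 are lower on average in knockout tumours with overlapping groups, CXCL2 and CXCL3 lie over each other, and CXCL5 and CXCL6 are near 0.

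CXCL2 and CXCL3, close relatives of CXCL1 that also signal through CXCR2, did not pass the test. CXCL2 was at 32.6, 20.7, 40.2 and 26.5 CPM in the parental tumours, by replicate, and at 21.4, 25.5, 29.8 and 33.4 CPM in the knockout tumours. Each knockout value lay inside the parental range. By edgeR the change was -0.12 on the log2 scale (SE 0.195, adjusted p = 0.685), with a 95% interval from -0.60 to 0.35, so a fall of the size seen for CXCL8 lies within the interval. Without parental replicate 3 the value turned to 0.048 (adjusted p = 0.878). CXCL3 was at 22.3, 21.1, 31.2 and 16.9 CPM in parental and 24.1, 24.0, 27.1 and 31.8 CPM in knockout tumours. Parental replicate 3 and knockout replicate 4 were the 2 highest of the 8. The log2 fold change of CXCL3 was 0.23 (SE 0.172, adjusted p = 0.370, 95% interval -0.20 to 0.65). It was positive in all 17 other analyses, from 0.10 to 0.44, and called in none of them.

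CXCL5 and CXCL6, made by epithelial cells in many inflamed tissues, were near the floor of detection and did not pass the filter on low counts. The 4 parental libraries, in replicate order, held 2, 74, 19 and 6 reads of CXCL5 and the 4 knockout libraries 2, 27, 8 and 2. Parental replicate 2 alone held most of the parental counts and knockout replicate 2 most of the knockout counts. Pooled over each group, CXCL5 had 2.56 parental counts per knockout count (95% interval 1.75 to 3.81, counting error only), but 0.900 (0.530 to 1.51) without parental replicate 2 and 6.31 (3.46 to 12.6) without knockout replicate 2. The CPM values did not separate the groups (exact permutation p = 0.571). CXCL6 had 0, 0, 2 and 1 counts in parental and 0 counts in all knockout tumours. A count of 0 allows up to 3 counts, so no difference in CXCL6 was detectable at this depth. The 2 genes with the most alike promoters were thus the 2 with the lowest counts.

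Of the 6 genes, 4 were tested and 2 were called, both lower, beside 27.0% called over all genes and 14.1% called lower. With 4 genes tested, these counts do not set the group apart from genes at large. Their median log2 fold change was -0.32, against 0.00 over all genes tested. The number called was 2 in 6 of the 7 other planned analyses on all tumours and 1 under upper-quartile scaling. It was 0 without parental replicate 3, knockout replicate 3 or knockout replicate 4, and 1 without parental replicate 2, knockout replicate 1 or knockout replicate 2.

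**Figure D2:**
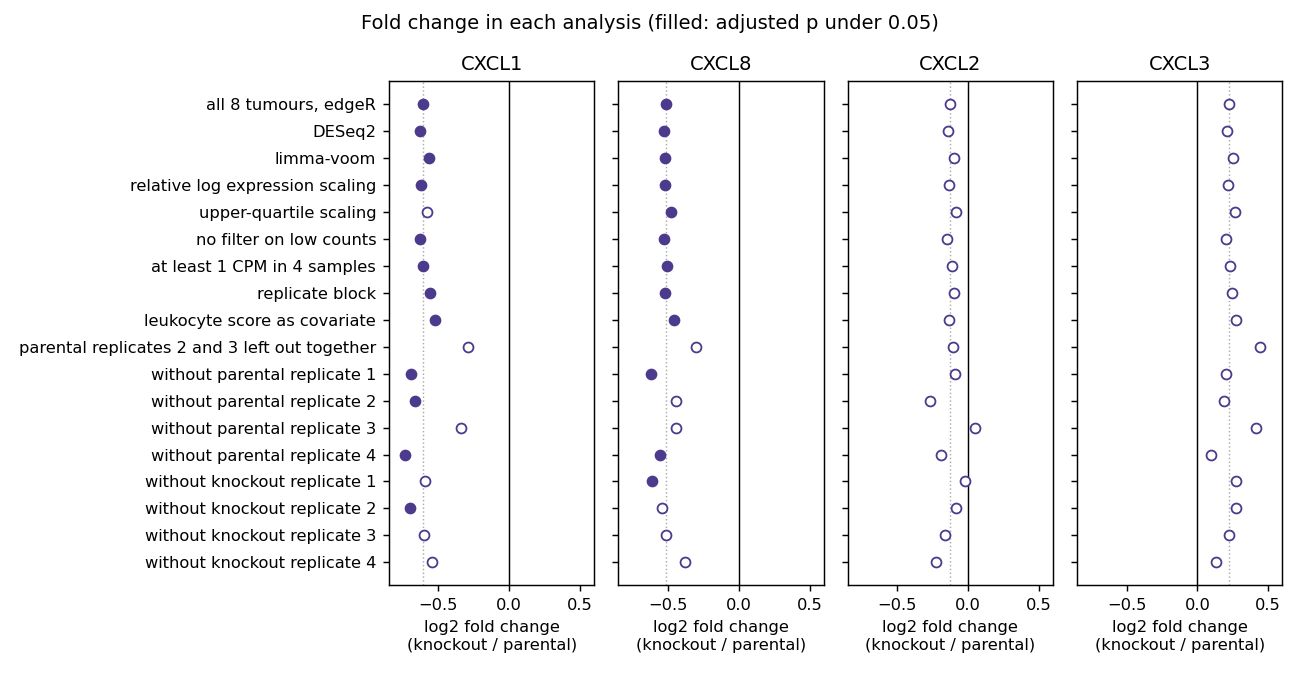
Log2 fold change (knockout over parental, x axis) of the 4 tested chemokines in each analysis (rows), filled where the adjusted p was under 0.05, with the value on all 8 tumours as a dotted line. CXCL1 and CXCL8 stay below 0 in every row and lose the call in 6 of 17 others each, and CXCL3 stays above 0 with no call.

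Levels were compared between the 6 genes per length, as CPM per kb of union exon length. CXCL1 was highest in every tumour, at 86.8 to 175 CPM per kb in parental and 65.8 to 89.4 in knockout tumours. CXCL8 followed at 54.5 to 78.8 and 34.5 to 58.4, with no overlap with CXCL1 in either group. That separation depended on the length used: per kb of the longest coding transcript CXCL1 ran from 102.6 to 206.7 and CXCL8 from 72.7 to 105.1 in parental tumours, and from 77.7 to 105.6 and 46.0 to 77.8 in knockout tumours, so their ranges met. CXCL2 came next at 13.8 to 26.8 and 14.3 to 22.3, and CXCL3 at 7.61 to 14.1 and 10.8 to 14.3. CXCL2 and CXCL3 were not separated beyond their spread, since their order in knockout tumours turned when the longest coding transcript was used as the length, with means of 22.6 and 24.9 CPM per kb. CXCL5 reached 1.42 and CXCL6 0.0409 CPM per kb in their highest tumours. CXCL1 and CXCL8 together thus made up most of the chemokine RNA of this group.

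The summed level of the 6 was 184, 207, 295 and 176 CPM per kb in the parental tumours, by replicate, and 157, 169, 156 and 137 in the knockout tumours. Every knockout tumour lay below every parental tumour in this sum, by a narrow gap (169 against 176). The groups also did not overlap for 29.3% of all genes tested. The sum is a description of its 2 abundant members. The share of CXCL3 in the sum was 4.32% to 5.47% in parental and 6.38% to 10.5% in knockout tumours. CXCL8 made up 26.7% to 38.0% and 25.2% to 37.3%. The size of these shares depends on the length used, which for CXCL3 was 2219 bases of union exon against 1075 in its longest coding transcript.

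**Figure D3:**
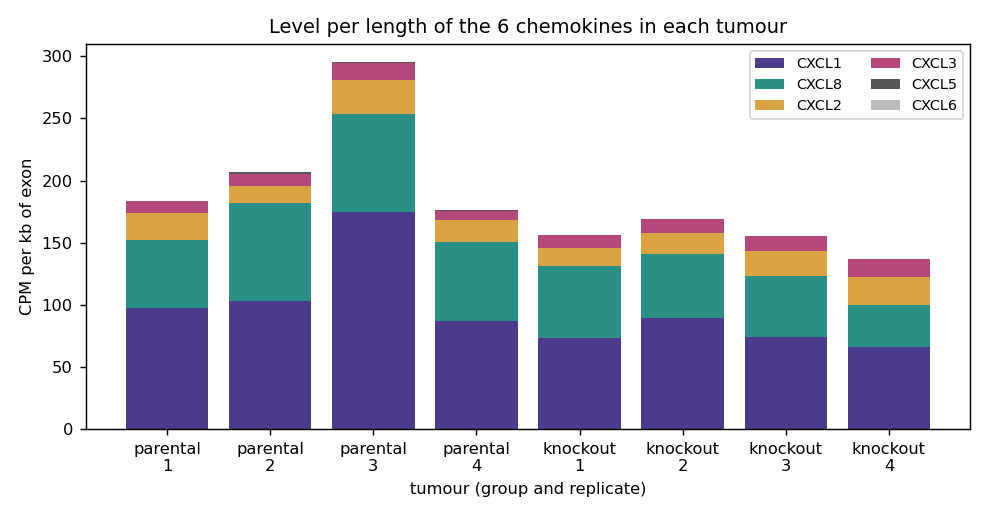
Stacked CPM per kb of exon of the 6 chemokines in each of the 8 tumours. CXCL1 and CXCL8 form the bulk of every bar, parental replicate 3 has the highest bar at 295 CPM per kb, and the CXCL3 layer takes a larger share in knockout tumours.

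Ratios of counts within a tumour do not depend on library scaling, and 6 pairs of the 4 tested genes were compared in this way after the values were seen. CXCL1 had 5.66, 6.33, 7.26 and 6.66 counts per CXCL3 count in the parental tumours, by replicate, and 3.93, 4.83, 3.56 and 2.68 in the knockout tumours. The groups did not overlap, and the mean log2 ratio fell by 0.81 (two-sided exact permutation p = 0.0286, or 0.0857 adjusted over the 6 pairs by Benjamini-Hochberg). CXCL3 had 0.116 to 0.180 counts per CXCL8 count in parental and 0.181 to 0.406 in knockout tumours, a log2 ratio higher by 0.77 (exact p = 0.0286, 0.0857 adjusted). The ratio of CXCL1 to CXCL8 ran from 0.750 to 1.27 in parental and 0.713 to 1.09 in knockout tumours and differed by -0.04 on the log2 scale, the smallest difference of the 6 pairs and the one with the highest exact permutation p. The other 3 pairs had exact p-values of 0.114 to 0.371. No pair passed after adjustment, which 6 pairs allow only if at least 4 of them reach the smallest possible p. CXCL1, CXCL2 and CXCL3 share sequence, with 5.73%, 9.24% and 5.26% of the 50-base stretches of their transcripts found in another gene, mainly in each other, so reads from those stretches can be split or left uncounted.

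The genes differed in which tumours were high. Parental replicate 3 was the highest parental tumour for CXCL1, CXCL2, CXCL3 and, level with replicate 2, CXCL8. Among knockout tumours, replicate 4 was the lowest in CXCL1 and CXCL8 and the highest in CXCL2 and CXCL3. Likeness of profiles was measured as the root-mean-square difference of log2 CPM over the 8 tumours after each gene was centred on its mean. CXCL1 was nearest to AGFG2 (0.11), LGALS8 (0.12), which encodes a galectin, and IKBKE (0.14), which encodes a kinase of the IKK family, against a median of 0.46 over 13049 candidate genes. CXCL8 was nearest to ST3GAL1 (0.11), GBP2 (0.12), an interferon-inducible GTPase gene, and ATP1B1 (0.14). CXCL2 was nearest to MNX1 (0.06) and SOX21-AS1 (0.08), and CXCL3 to ZDHHC1 (0.09) and STMN3 (0.10). The difference between CXCL1 and CXCL8 was 0.27 and that between CXCL2 and CXCL3 also 0.27, while CXCL3 and CXCL8 differed by 0.54, above the median of 0.36 for CXCL3.

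Counts of the receptor genes were low. CXCR1, the receptor for CXCL8 and CXCL6, had 45 counts over the 4 parental and 163 over the 4 knockout tumours, and was at 0.984, 0.684, 0.223 and 0.298 CPM against 1.87, 1.66, 2.24 and 1.91 CPM. All knockout tumours lay above all parental tumours. In edgeR's fit CXCR1 rose, with a log2 change of 1.83 ± 0.385 (SE; adjusted p = 0.00452), at a level of at most 2.24 CPM. CXCR2, the receptor that all 6 chemokines share, had 5 counts in parental and 2 in knockout tumours. ACKR1, a scavenger receptor for chemokines, had 1 and 0 counts. Most other genes on a list of 12 neutrophil markers were near 0. The granule genes MPO and ELANE had at most 4 counts in any tumour, FCGR3B and CEACAM8 at most 2, and CSF3R had 4, 34, 40 and 1 counts in parental and 6, 0, 0 and 0 in knockout tumours. FPR1 had 3, 41, 52 and 1 counts in parental and 8, 5, 1 and 1 in knockout tumours. Over each group FPR2 had 12 parental counts and 1 knockout count, and AZU1 had 2 and 15. Of the 12 markers, 8 stayed under 1 CPM in every tumour, and 2 were tested, CXCR1 itself and S100A12, which rose from 0.931 ± 0.283 to 4.73 ± 1.98 CPM (SD, n = 4 each; adjusted p = 0.000346). The summed level of the 12 markers was 1.49 to 6.30 CPM in parental and 5.09 to 9.70 CPM in knockout tumours. In the knockout tumours most of it came from S100A12 and CXCR1. Neutrophils of the host would be mouse cells, while reads were aligned to the human genome and the handling of mouse reads is not given. Low counts here therefore do not show that neutrophils or their receptors were few, and the summed level does not measure neutrophils.

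The platelet-type chemokine genes lie among the 6, PF4V1 between CXCL6 and CXCL1 and PF4 and PPBP between CXCL1 and CXCL5, and PPBP rose. PPBP, which encodes the precursor of the CXCR2 ligand NAP-2 and is best known from platelets, was at 1.04, 1.61, 1.70 and 0.383 CPM in parental replicates 1 to 4. In knockout replicates 1 to 4 it was at 12.5, 14.1, 24.2 and 23.7 CPM. No knockout tumour came near the parental range. In edgeR's fit PPBP rose 15.8-fold, a log2 change of 3.98 ± 0.370 (SE; adjusted p = 1.95e-05), and was called in all 17 other analyses. PF4, the other platelet chemokine gene beside it, had 1 count in 8 tumours and PF4V1 had 0. Per kb of union exon, PPBP was at 17.4 to 33.9 CPM in knockout tumours. Its place beside CXCL3 depended on the length used for CXCL3, which was at 10.8 to 14.3 CPM per kb of union exon and 22.3 to 29.6 CPM per kb of its longest coding transcript. Its promoter holds no GGAATTTCC in the 250 bases upstream, and that says nothing further about its control.

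The flanking genes moved in both directions. RASSF6, the next tested gene before CXCL8, fell from 21.4 ± 2.66 to 11.9 ± 1.14 CPM (log2 fold change -0.84, edgeR adjusted p = 0.000406). Beyond CXCL2, MTHFD2L, which encodes a mitochondrial folate enzyme, had a log2 fold change of 0.09 (adjusted p = 0.681). The EGFR ligand genes further along differed among themselves: EREG rose from 16.4 ± 5.79 to 50.1 ± 13.2 CPM (1.62, adjusted p = 0.000919) and AREG from 9.58 ± 3.07 to 34.3 ± 7.39 CPM (1.84, adjusted p = 0.000127), while BTC (0.10, adjusted p = 0.652) and EPGN (0.58, adjusted p = 0.284) were not called. PARM1 fell by 2.24 on the log2 scale (adjusted p = 0.000823), and ANKRD17 on the other side had a value of -0.12 (adjusted p = 0.408). In all, 4 of 8 tested flanking genes were called, 2 higher and 2 lower, beside 27.0% called over all genes tested. Albumin-family genes ALB, AFP and AFM, which lie between ANKRD17 and RASSF6, had 5, 10 and 0 counts in all 8 tumours.

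**Figure D4:**
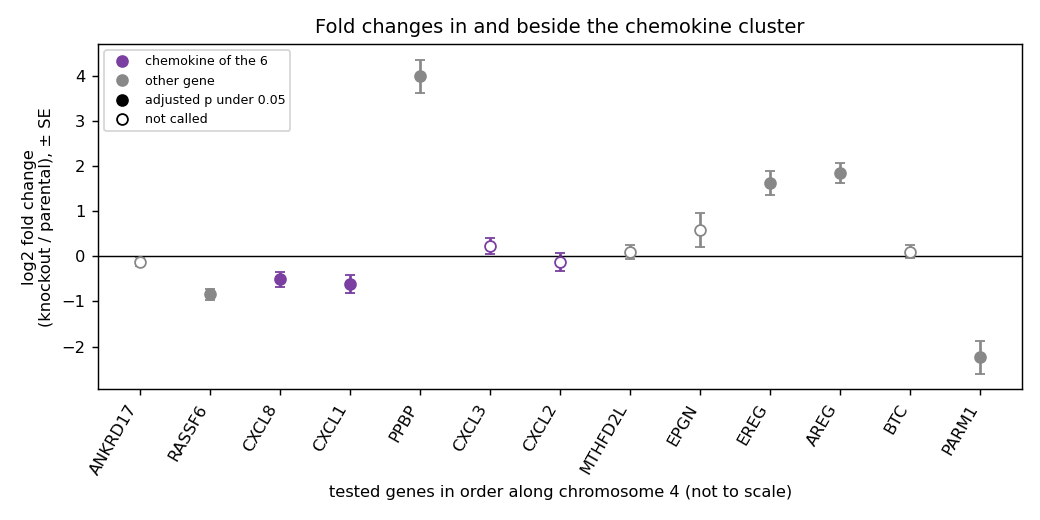
Log2 fold change (knockout over parental) ± SE of the 13 tested genes from ANKRD17 to PARM1, in their order on chromosome 4, with the chemokines in purple, other genes in grey, and filled points for an adjusted p under 0.05. The 4 chemokines lie between -0.61 and 0.23, while PPBP in their midst is at 3.98.

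Other CXC ligand genes were lower or not called. Of 8 listed, 4 were tested and 2 called, both lower, beside 27.0% called and 14.1% called lower over all genes tested. CXCL17, a mucosal chemokine, was at 21.0, 6.64, 50.7 and 32.4 CPM in parental and 0.234, 0.0975, 0.327 and 0.373 CPM in knockout tumours, and fell in edgeR's fit with a log2 change of -6.71 ± 0.687 (SE; adjusted p = 3.73e-05). CXCL14, an epithelial chemokine, fell from 55.8 ± 16.1 to 21.1 ± 2.21 CPM (-1.40, adjusted p = 0.000304). The corresponding values were -0.61 for CXCL1 and -0.51 for CXCL8. CXCL16 (0.17, edgeR adjusted p = 0.325) was called higher in 2 of 17 other analyses, and DESeq2 called 3 genes of the list. CXCL9, CXCL10, CXCL11 and CXCL13 fell below the filter, with 76, 97, 19 and 15 parental counts against 3, 3, 2 and 3 knockout counts. Most of these parental counts lay in parental replicates 2 and 3.

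The cytokines that can induce the 6 chemokines moved in both directions. Of 13 listed, 9 were tested and 6 called, 4 higher and 2 lower, beside 27.0% called over all genes tested. The median log2 fold change of the 9 was 0.47. IL1B, which encodes the secreted interleukin-1 beta, rose from 10.1 ± 1.34 to 22.3 ± 6.31 CPM (1.14, edgeR adjusted p = 0.00121). IL1A, the more abundant interleukin-1 gene by CPM in each tumour and named here after its values were seen, fell from 73.9 ± 15.3 to 43.0 ± 6.82 CPM (-0.78, adjusted p = 0.00317). IL6 rose from 4.67 ± 0.809 to 10.8 ± 0.165 CPM (1.21, adjusted p = 0.000114). LIF, of the same cytokine family, rose from 53.4 ± 21.5 to 162 ± 27.1 CPM (1.60, adjusted p = 0.000406). IL33, at 0.654 to 2.81 CPM, was the other gene called lower (-0.90, adjusted p = 0.0491), and that call was lost in 9 of 17 other analyses, among them the replicate block (-0.87, adjusted p = 0.0949) and every analysis without 1 tumour except parental replicates 2 and 3. IL18 rose by 0.50 (adjusted p = 0.00262). The groups did not overlap for IL1B, IL1A, IL6, LIF or IL18, as for 29.3% of all genes tested. TNF was at 0.638 to 1.25 CPM in parental and 1.03 to 1.45 CPM in knockout tumours (adjusted p = 0.255).

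On the receiving side, 18 of 19 receptor and adaptor genes were tested and 6 called, 3 higher and 3 lower. Over all genes tested 27.0% were called. IL1R1, the interleukin-1 receptor gene, rose from 18.8 ± 2.61 to 38.3 ± 4.73 CPM (1.02, edgeR adjusted p = 0.000129), and OSMR, the oncostatin M receptor gene, from 245 ± 51.9 to 420 ± 88.7 CPM (0.78, adjusted p = 0.00738). IRAK1, a kinase gene of interleukin-1 and Toll-like receptor signalling, fell by 0.46 (adjusted p = 0.00134), and TLR2, a receptor for bacterial lipopeptides, by 1.51 (adjusted p = 0.00161). All 16 genes of the NF-kB list were tested and 2 were called, both higher, beside 13.0% called higher over all genes tested. NFKB2 rose by 0.52 (adjusted p = 0.0406) and RELB by 0.47 (adjusted p = 0.0353), which together form the factor of the alternative pathway. Both calls were lost when parental replicate 1, 3 or 4 or knockout replicate 1, 2 or 3 was left out, with adjusted p-values of up to 0.112 for NFKB2 and 0.0968 for RELB. RELA (0.25, adjusted p = 0.0791), NFKB1 (-0.07, 0.689) and the inhibitor gene NFKBIA (0.23, 0.322) did not pass. In 4 of 17 other analyses, all by edgeR, RELA was called higher (lowest adjusted p 0.0305), as was CHUK in 2 (lowest 0.0377). The median of the list was 0.06. On all 8 tumours with the usual filter and no covariate, edgeR, DESeq2 and limma-voom each called 0 of its genes lower, and 6 had an unadjusted edgeR p under 0.05, among them NFKBIZ and TNIP1 with negative fold changes. Each of these was called lower in 2 other edgeR analyses, TNIP1 under the replicate block (-0.37, adjusted p = 0.0246) and without parental replicate 4, and NFKBIZ with no filter on low counts and without parental replicate 2 (lowest adjusted p 0.0244).

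Genes of factors that bind beside NF-kB or act on the mRNA were set beside the 27.0% called over all genes tested. Of 11 AP-1, C/EBP and early response genes, FOSL1 rose by 0.50 (edgeR adjusted p = 0.0337) and CEBPD fell by 0.46 (0.0376), and 9 were not called. Both calls were lost without parental replicate 3 or knockout replicate 1, 3 or 4, that for FOSL1 also without parental replicate 2, and that for CEBPD also without parental replicate 1 or knockout replicate 2. Both were also lost with parental replicates 2 and 3 left out together, and CEBPD under upper-quartile scaling. The adjusted p-values reached 0.185 and 0.104. JUND, not called on all 8 tumours (0.25, edgeR adjusted p = 0.0555), was called higher in 6 of 17 other analyses, all by edgeR (lowest adjusted p 0.0208). Of 9 regulators of AU-rich mRNA decay, edgeR called 0, limma-voom 0 and DESeq2 1, and 3 (ELAVL1, KHSRP and MAPKAPK2) had an unadjusted edgeR p under 0.05. Their median log2 fold change was -0.15. Over the 17 other analyses KHSRP was called lower in 4, ELAVL1 in 3 and ZFP36 in 1. Of 9 genes for the heparan sulphate chains that hold chemokines at cell surfaces, 8 were tested and 3 called, beside 27.0% over all genes tested. SDC4 (0.53, edgeR adjusted p = 0.0104) and SDC3 (0.41, 0.0316) rose and SDC1 (-0.32, 0.0317) fell. The call for SDC1 was lost without parental replicate 3 or 4 or knockout replicate 2, 3 or 4 (adjusted p of up to 0.0884), with parental replicates 2 and 3 left out together, and under the replicate block (-0.32, adjusted p = 0.0672). The call for SDC3 was lost without parental replicate 1 or 2 or knockout replicate 1, 3 or 4, or with parental replicates 2 and 3 left out together (up to 0.0821).

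Other secreted factors that act on neutrophils were called in both directions, 3 higher and 3 lower of 8 tested. Over all genes tested 27.0% were called. S100A8 rose from 64.2 ± 31.9 to 312 ± 92.3 CPM (2.28, edgeR adjusted p = 0.000461) and S100A9, which encodes its partner in calprotectin, from 956 ± 191 to 2192 ± 446 CPM (1.20, adjusted p = 0.000369). ANXA1, whose product limits neutrophil recruitment, rose by 0.52 (adjusted p = 0.0180, and 0.0917 with parental replicates 2 and 3 left out together). The serum amyloid A gene SAA1 was at 9.53, 9.37, 32.2 and 4.97 CPM in parental and 1.78, 5.66, 1.03 and 0.794 CPM in knockout tumours, and fell by 2.61 (adjusted p = 0.0136, and 0.0578 with parental replicates 2 and 3 left out together). LCN2, the neutrophil gelatinase-associated lipocalin gene and named after its values were seen, was at 504, 504, 1371 and 345 CPM in parental and 164, 440, 161 and 151 CPM in knockout tumours (-1.57, adjusted p = 0.0243). That call was lost without parental replicate 3 or knockout replicate 1, 3 or 4, and with parental replicates 2 and 3 left out together, with an adjusted p of up to 0.102 over all other analyses. SAA1 and LCN2 were highest in parental replicate 3 and, within the knockout group, in replicate 2, the same 2 tumours in which CXCL1 was highest within its group.

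**Figure D5:**
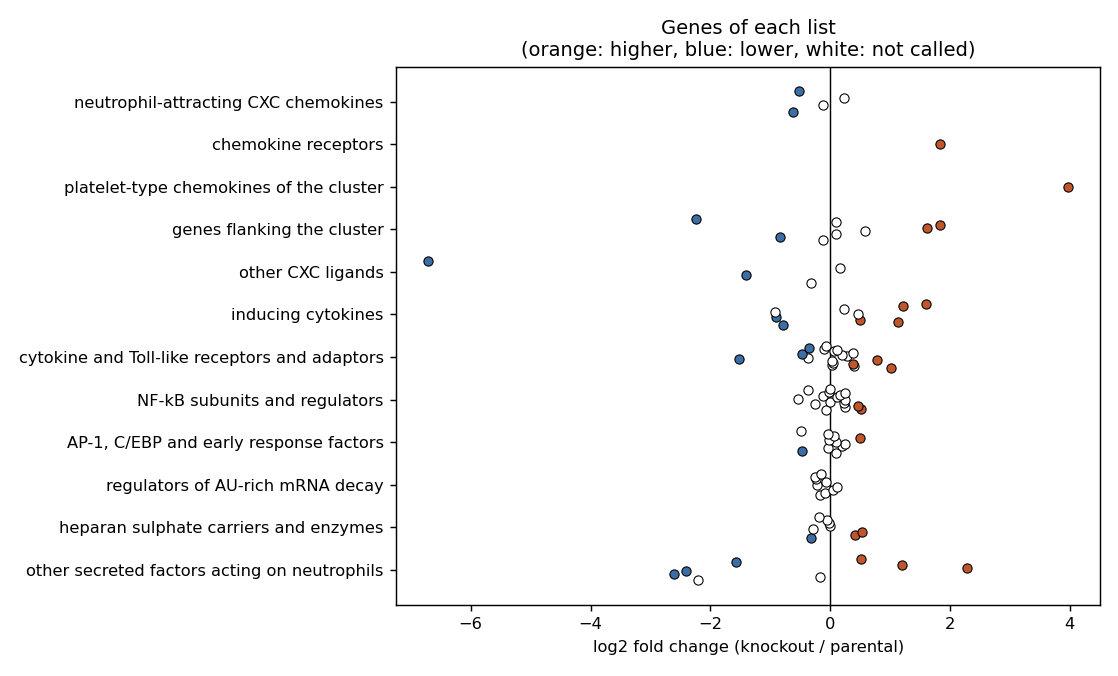
Log2 fold change (knockout over parental, x axis) of every tested gene in the 12 lists (rows), with genes called higher in orange, called lower in blue and not called in white. The chemokine genes lie close to 0 beside PPBP at 3.98, CXCL17 at -6.71 and the S100A8 and SAA1 genes of the last row.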

How the data were processed

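Gene counts of 8 xenograft RNA libraries were used. The authors deposited 1 table per tumour with unnormalized read counts by gene symbol. Per the submitters' processing notes the tools were TopHat2 2.1.1 and HTSeq 0.11.0 on hg38; annotation, counting options, strandedness and the handling of mouse reads are not given in the sources used here. Of all reads listed, 4.52% to 8.11% had no unique alignment, and such reads are in no gene's count. The summary lines were left out. No 2 libraries agreed within sampling noise.

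Groups and replicate numbers came from the titles. Genes were kept by filterByExpr (minimum count 10, total 15), scaled by TMM and tested with edgeR 4.0.16 (quasi-likelihood, no covariate, Benjamini-Hochberg over 16219 genes, threshold 0.05; R 4.3.3). The SE is the log2 fold change over the square root of F, and 95% intervals use it with the residual degrees of freedom alone. The script was tested on simulated data. Alternatives used DESeq2 1.42.0, limma-voom 3.58.1, other scalings and filters, the replicate block and leaving out each tumour. Added after the values were seen were the leukocyte score (mean log2 CPM of 10 markers, pseudocount 0.1), parental replicates 2 and 3 left out together, and the pairs of members. Positions and lengths are from GENCODE 29, promoters from RefSeq. Intervals of counts cover counting error only.

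Members and lists were chosen with earlier results of these data known. Named genes are the 6 members, the receptors and platelet-type genes, tested flanking genes, up to 4 called genes per other list by p, NFKB1, RELA and NFKBIA, and the nearest profiles. Other genes named were chosen after their values were seen.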

Additional observations from a re-analysis of the deposited data

Results flagged for a closer look

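For the genes named above, the tumour at either end of a group of 4 was set against the other 3. Sets whose highest count was 3 or fewer were left out. Of 126 sets, 9 had 1 tumour far from the rest. Chance gives about 5% of such sets, but several of these genes were named after their values were seen and the sets share tumours, so the number cannot be read against that share. None of the 9 was one of the 6 chemokines. In parental replicate 3, SAA1 was at 32.2 CPM against 4.97 to 9.53 CPM in the other parental tumours. LCN2 was at 1371 CPM there against 345 to 504 CPM, and CSF3, which encodes the neutrophil growth factor G-CSF, at 18.8 CPM against 2.44 to 3.27 CPM. LGALS8, chosen for its likeness to CXCL1, was at 136 CPM there against 92.8 to 96.4 CPM, and MPO at 0.179 CPM (4 counts) against 0. In knockout replicate 2, LCN2 was at 439.9 CPM against 151 to 164 CPM in the other knockout tumours, and CSF3 at 4.58 CPM against 0.373 to 0.607 CPM. CSF3R was at 0.280 CPM (6 counts) in knockout replicate 1 and ALB at 0.187 CPM (4 counts) in knockout replicate 4, each against 0 in the other knockout tumours.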

How the results depend on the processing

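The direction of CXCL1, CXCL8 and CXCL3 held in all 17 alternatives. CXCL1 was no longer called under upper-quartile scaling (-0.58, adjusted p = 0.0518), where 1 chemokine was called, or with parental replicates 2 and 3 left out together (-0.29), where 0 were called and CXCL8 was not called either (-0.30). Leaving out 1 tumour gave -0.73 to -0.34 for CXCL1, -0.62 to -0.38 for CXCL8, -0.27 to 0.05 for CXCL2, reversed without parental replicate 3 (0.048), 0.10 to 0.41 for CXCL3, and 0 to 2 chemokines called. CXCL5 had a log2 ratio of mean CPM of -1.36, with -2.69 as the lowest and 0.22 as the highest value on 7 tumours. CXCL6 gave no fold change. Why the calls were lost was not tested, beyond the loss of 1 tumour where that was the change. Over all genes, 4385 were called, 3501 to 4721 with 1 tumour left out and 3871 to 5254 otherwise; 3871 was with the replicate block. Under that block CXCL1 was at -0.56 (adjusted p = 0.0379) and CXCL8 at -0.52 (0.0422), and it changed no call of the chemokines. Of the other listed genes it changed 4 calls: IL33, SDC1 and IL17RC (0.40, adjusted p = 0.0519) were lost and TNIP1 was gained. Same-numbered tumours did not deviate together (correlations of -0.19 to 0.09 over 16219 genes), so the numbers were not taken as pairs. At this depth CXCL5 and CXCL6 were too rare to compare.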

Other observations

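CSF3, the gene of the neutrophil growth factor G-CSF, was at 3.11, 2.44, 18.8 and 3.27 CPM in parental and 0.467, 4.58, 0.373 and 0.607 CPM in knockout tumours, with an edgeR adjusted p of 0.0809. NFKBIZ, an NF-kB cofactor gene, was at 60.9, 46.1, 102 and 49.4 CPM in parental and 40.9, 54.8, 45.6 and 38.0 CPM in knockout tumours (adjusted p = 0.111). Both genes were named after their values were seen, and both were highest in the same tumour of each group as CXCL1, parental replicate 3 and knockout replicate 2.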
